A study of Mus musculus with 12 samples.

Results

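Doxorubicin (DOX) was compared with vehicle in mouse hearts labelled as knocked out for PDE10A. The comparison used 6 of the 12 libraries of the series, 3 from mice given DOX and 3 from mice given vehicle, and each library came from 1 mouse by its title. Libraries were chosen by genotype and treatment label alone, so no measured value entered the choice. Messenger RNA from whole heart tissue was sequenced, and reads were counted for each gene. The remaining 6 libraries came from hearts labelled wild type (WT), 3 with DOX and 3 with vehicle, and they served to estimate the spread and to set the DOX difference beside that in WT hearts.

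All mice are labelled C57BL/6J. The protocols state a dose of 15 mg/kg of DOX, given into the peritoneum as 1 bolus, with a span of 7 days. They also describe treatment with a PDE10A inhibitor or its solvent around the DOX dose. No library is labelled with the inhibitor, and the labels do not say which of these mice had the solvent injections. The labels give neither how the knockout (KO) allele was made, nor the age of the mice, nor the hour of collection. The protocols speak of male or female mice. Xist did not exceed 0.236 CPM (a gene's count scaled to a common library total) and Ddx3y was at least 24.5 CPM in all 12 libraries, so the libraries came from 1 sex. By their titles the KO vehicle mice are veh_3393, veh_3394 and veh_3395, and the KO DOX mice are Dox_18, Dox_19 and Dox_20. The vehicle mice thus come from another number range. The labels do not say if they had another origin or handling, so DOX and any such difference cannot be told apart in KO hearts.

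DOX is an anthracycline used against cancer. It poisons type II topoisomerases, breaks DNA and injures heart muscle, and its use is limited by that injury. PDE10A hydrolyses the second messengers cAMP and cGMP, which act in heart muscle through protein kinases A and G. In whole tissue a lower count for a gene can come from fewer cells of a type or from less RNA per cell, and these cannot be told apart.

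Library totals of the 6 KO hearts ran from 23846398 counts in Dox_18 to 28146253 counts in Dox_19. Mitochondrially encoded genes took 27.2% to 30.8% of the counts. Transcripts of 11 cardiomyocyte markers summed to between 85200 and 97700 CPM in each KO library. Pde10a itself stood at 9.31, 11.9 and 9.13 CPM with vehicle and at 8.26, 8.48 and 9.09 CPM with DOX in the libraries labelled KO. The libraries labelled WT held between 1.00 and 3.38 CPM, so the whole-gene count was higher, not lower, under the KO label. A whole-gene count does not show whether the allele was disrupted. Whether labels were exchanged was not tested, and an exchange would make the hearts described here the WT ones and turn the sign of each genotype contrast. "KO" therefore stands here for the libraries labelled KO. The log2 difference of Pde10a with DOX in KO was -0.23 (adjusted p = 0.997, edgeR's quasi-likelihood test).

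Cell markers set 1 library of each treatment apart. A list of 12 atrial markers summed to 119, 2430 and 113 CPM in veh_3393, veh_3394 and veh_3395. It summed to 1840, 289 and 243 CPM in Dox_18, Dox_19 and Dox_20. Libraries veh_3394 and Dox_18 were thus both high, as they were for fibroblast markers (3500 and 4160 CPM, against 2230 to 2330 CPM in the other 4). Over the 6 KO libraries, the first principal component of log2(CPM + 1) held 49.9% of the variance and placed these at -19.7 and -29.8, with the other 4 between 8.87 and 17.7. The second component held 22.3% and separated treatments, with DOX at -10.1, -15.1 and -9.94 and vehicle at 15.4, 10.2 and 9.58. Counts of hemoglobin genes ranged from 13 in Dox_18 to 6310 in veh_3393. Where leaving out veh_3394 and Dox_18 changed a list's count or median by a wide margin, that value is given too, and for the counts of list members this was added after the values had been seen.

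**Figure D1:**
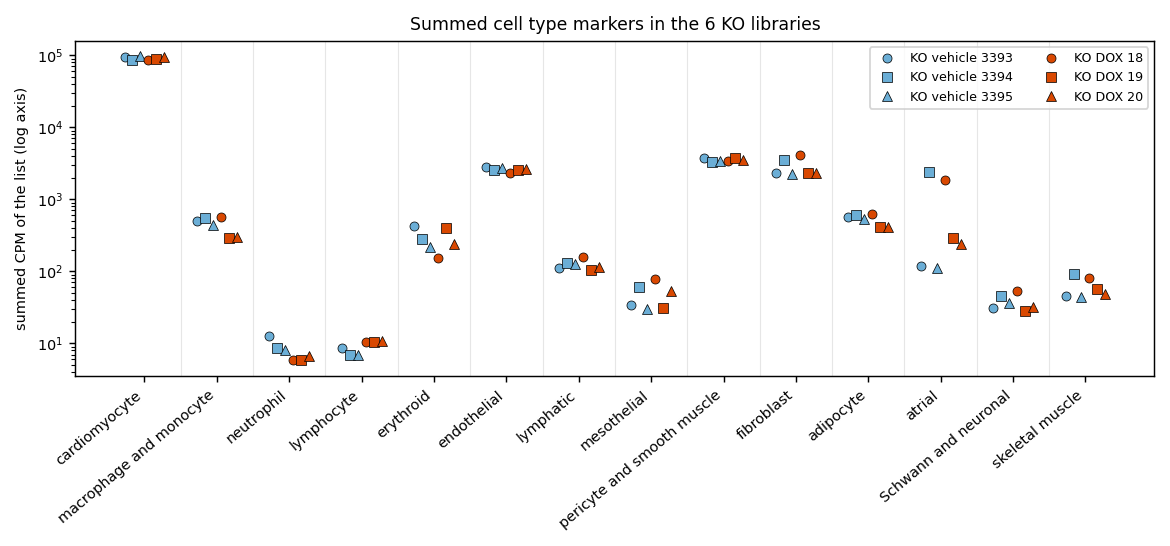
Summed CPM (log axis) of each cell type marker list in the 6 KO libraries, with 1 point per library, blue for vehicle and orange for DOX. Vehicle library veh_3394 (2430 CPM, blue square) and DOX library Dox_18 (1840 CPM, orange circle) stand above the other 4 libraries in the atrial list.

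Few genes passed the threshold for DOX in KO hearts. Of 14757 genes tested, 2 (0.0136%) had an adjusted p below 0.05 by edgeR's quasi-likelihood test with Benjamini-Hochberg adjustment, 1 higher and 1 lower (0.00678% each). In WT hearts the same fit called 2743 genes (18.6%), 1386 higher (9.39%) and 1357 lower (9.2%). An unadjusted p below 0.05 was found for 789 genes in KO hearts (5.35%), with 738 expected from the number tested alone. Of these 789, 364 were higher with DOX (2.47%) and 425 lower (2.88%). This fit shares 1 spread over the 4 groups. In a fit of the 6 KO libraries alone 5.17% of genes were higher and 5.43% lower at that p. Regardless of sign, the median gene differed by 0.12 on the log2 scale in KO and by 0.30 in WT. DESeq2 called 66 genes (0.447%) in KO, 24 higher (0.163%) and 42 lower (0.285%). Limma-voom with sample weights called 88 (0.596%), 27 higher (0.183%) and 61 lower (0.413%). Both called the same 52 genes, of which 15 were higher and 37 lower with DOX.

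**Figure D2:**
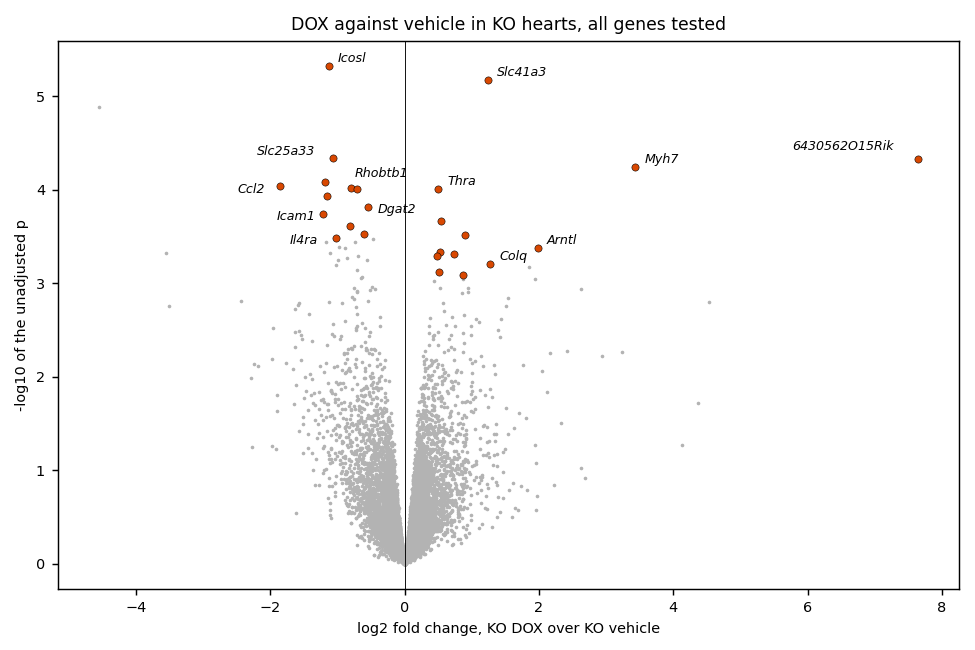
Log2 fold change of DOX over vehicle in KO hearts (x axis) against -log10 of the unadjusted p from edgeR (y axis), 1 point for each of 14757 genes, with the genes named by rank or by agreement of tools in orange. Slc41a3 and Icosl, the 2 genes past the adjusted threshold, lie near the top, and Myh7 lies to the right at a log2 fold change of 3.44.

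Slc41a3 was the 1 gene that edgeR called higher. It encodes a member of the SLC41 family of magnesium transporters and lies on chromosome 6 from 90604725 to 90646412 (GRCm38, GENCODE M21). It stood at 26.4, 21.6 and 19 CPM in KO vehicle hearts and at 46.1, 65.2 and 46.9 CPM in KO DOX hearts. Each DOX library lay above each vehicle library. The log2 fold change was 1.24 (SE 0.17, adjusted p = 0.0493, edgeR). WT hearts held 55.8, 55.7 and 52.5 CPM with vehicle and 59.1, 82 and 64 CPM with DOX, so KO vehicle hearts stood below the other 3 groups. Among 16 tested genes of a list of magnesium transporters, Slc41a3 was the 1 with an unadjusted p below 0.05. Its relative Slc41a1, a plasma membrane magnesium transporter, held 76.5, 68.9 and 75.2 CPM with vehicle and 78.2, 76.9 and 75.2 CPM with DOX (log2 0.06, adjusted p = 0.997, edgeR).

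Icosl was the 1 gene that edgeR called lower. It encodes the ligand of ICOS, a costimulatory receptor of T cells, and lies on chromosome 10 from 78069302 to 78083913. It stood at 19.3, 16.1 and 14.3 CPM with vehicle and at 8.93, 6.80 and 7.01 CPM with DOX in KO hearts. Each DOX library lay below each vehicle library. The log2 fold change was -1.13 (SE 0.15, adjusted p = 0.0493, edgeR). WT hearts held 8.23, 10.4 and 9.72 CPM with vehicle and 8.26, 8.30 and 7.71 CPM with DOX. Here KO vehicle hearts stood above the other 3 groups. The KO vehicle libraries enter both the DOX difference and any distance from WT, so these are not separate measurements. Neither difference passed the test of its contrast with the WT DOX difference (log2 0.91, adjusted p = 0.129 for Slc41a3 and -0.90, adjusted p = 0.104 for Icosl).

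Both calls were close to the threshold. Each held in 7 of 21 alternative fits, and the adjusted p reached 0.248 for Slc41a3 and 0.232 for Icosl, with log2 values of 1.06 to 1.38 and -1.28 to -1.0. Each was lost when any 1 KO library other than Dox_18 was left out, when any 1 WT library other than WT Dox_22 was left out, and without veh_3394 and Dox_18 together (adjusted p = 0.136 for Slc41a3 and 0.0669 for Icosl, edgeR).

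The sequences before the start sites of these genes are shown because they are the 2 calls, with 250 bases before the RefSeq start on GRCm38.p6 and the plus strand for both. Slc41a3 is given at chr6:90618996-90619245 and Icosl at chr10:78069118-78069367. RefSeq and GENCODE differ in where each gene starts. By GENCODE the whole Slc41a3 window lies inside the gene (90604725 to 90646412), not before it. The Icosl window runs past the GENCODE start of that gene (78069302) at its end. Capitals mark CACGTG, the palindromic E-box bound by the clock pair CLOCK and BMAL1 and by other basic helix-loop-helix factors, which reads alike on both strands. 
Slc41a3: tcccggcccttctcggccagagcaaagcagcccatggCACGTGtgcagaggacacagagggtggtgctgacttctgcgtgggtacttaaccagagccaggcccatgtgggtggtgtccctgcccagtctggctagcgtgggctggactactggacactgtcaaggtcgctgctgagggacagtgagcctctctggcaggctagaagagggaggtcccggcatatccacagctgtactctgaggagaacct
Icosl: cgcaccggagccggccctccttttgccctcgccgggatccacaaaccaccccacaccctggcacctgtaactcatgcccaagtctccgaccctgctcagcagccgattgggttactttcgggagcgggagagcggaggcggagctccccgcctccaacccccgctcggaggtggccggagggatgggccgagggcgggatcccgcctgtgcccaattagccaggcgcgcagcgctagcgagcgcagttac
The Slc41a3 window holds 1 match, which begins 213 bases before the RefSeq start, and the Icosl window holds none. Of 32851 RefSeq windows of this length, 1978 (6.02%) hold the motif. A match says only that these letters are present.

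Beyond the 2 calls, a fixed rule named the 12 genes higher and the 12 lower with the smallest p among genes of adequate level whose DOX and vehicle libraries did not overlap. Slc41a3 and Icosl are among these 24. The other 22 had adjusted p-values of 0.132 to 0.301 by edgeR, so none of them passed. DESeq2 called all 24 and limma-voom 23. The 24 were picked from these data for small p and separate libraries, so neither these calls nor the separation adds support. Over all genes, the 3 DOX libraries lay above the 3 vehicle libraries in 1220 (8.27%) and below them in 1188 (8.05%).

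The 24 genes include a contractile protein and a receptor that acts on its gene. Myh7, the slow myosin heavy chain that adult mouse ventricles hold at a low level, stood at 129, 240 and 74.7 CPM with vehicle and at 760, 2710 and 1330 CPM with DOX. The lowest DOX value was above the highest vehicle value, and the DOX libraries differed among themselves by a wide margin. The log2 fold change was 3.44 (SE 0.57, adjusted p = 0.132, edgeR). In WT hearts Myh7 held 140, 70.4 and 84.3 CPM with vehicle and 2530, 5060 and 8070 CPM with DOX (log2 5.73, adjusted p = 0.00468). The difference between the genotypes did not pass (log2 -2.30, adjusted p = 0.214). Thra, the thyroid hormone receptor alpha that represses Myh7 and drives Myh6, stood at 50.6, 56.3 and 55.1 CPM with vehicle and at 80.4, 77 and 71.3 CPM with DOX (log2 0.50, adjusted p = 0.132, edgeR). Its 3 DOX libraries lay above the 3 vehicle libraries. WT hearts held 75.5, 70.4 and 74.2 CPM of Thra with vehicle and 77.8, 86.7 and 88.5 CPM with DOX. KO vehicle hearts thus stood below the other groups. On chromosome 11 Thra (98740638 to 98769006) overlaps Nr1d1 (98767932 to 98775333), a clock gene on the other strand. Since the strand setting of the counting is not given, reads from the overlap cannot be told apart.

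Other genes of the 24 with higher values serve lipid synthesis, iron uptake, detoxification and the matrix. Srebf1, the activator of fatty acid synthesis genes, had 29.7, 25 and 21.8 CPM with vehicle and 42.8, 43.7 and 41.2 CPM with DOX. Scara5, a ferritin receptor, had 24.4, 21.9 and 20.6 CPM with vehicle and 30.7, 36.9 and 29.3 CPM with DOX. Gstm2, a glutathione transferase, had 77.9, 78 and 83.8 CPM with vehicle and 108, 120 and 108 CPM with DOX. In each the 3 DOX libraries were higher, with log2 values of 0.74, 0.53 and 0.49 and an adjusted p = 0.246 in edgeR for all of them. Col5a3, a chain of type V collagen, had log2 0.88, Colq, the collagen tail of acetylcholinesterase, 1.27, Tiam2, an activator of the GTPase Rac, 0.90, and Spsb3, a SOCS box protein, 0.52. Tiam2 (3326573 to 3531344) and Spsb3 (24886643 to 24892152) lie on chromosome 17, as Pde10a does (8525372 to 8986648). Both treatment groups carry the KO label, and whether chromosome 17 holds more of the 24 than of all genes was not tested.

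The 12 lower genes include mitochondrial and lipid enzymes. Slc25a33, a mitochondrial carrier of pyrimidine nucleotides, stood at 34.9, 26 and 25.1 CPM with vehicle and at 14.9, 12.8 and 13.4 CPM with DOX (log2 -1.07, SE 0.17, adjusted p = 0.132, edgeR). The WT vehicle libraries held 23, 24 and 25.2 CPM, close to the lower KO vehicle values. Dgat2, which makes triglycerides, had 435, 360 and 413 CPM with vehicle and 259, 281 and 291 CPM with DOX (log2 -0.54, adjusted p = 0.175, edgeR). Gpt2, the mitochondrial alanine transaminase, had 48.4, 44.5 and 47.6 CPM with vehicle and 32.3, 28.3 and 31.9 CPM with DOX (log2 -0.60, adjusted p = 0.246, edgeR). All 3 genes had DOX libraries that lay below each vehicle library. Tmem82 went with log2 -1.19, Atp8b1, a phospholipid flippase, with -0.70, and Cyb561, a cytochrome b561, with -0.82. Uckl1os had -1.15 and is antisense to its neighbour, and since the strand setting of the counting is not given its reads cannot be told apart from those of that gene.

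6430562O15Rik, a processed transcript on chromosome 13 (99396924 to 99412876), had no count in any KO vehicle library. It held 0.59, 0.439 and 1.77 CPM with DOX and 0.806 to 2.66 CPM in WT hearts. A limit of 3 counts per vehicle library, which covers counting error only, equals 0.118 CPM. The observed KO DOX mean of 0.934 CPM was 7.89 times that limit. This mean has no lower limit of its own and is raised by Dox_20 (1.77 CPM), so 7.89 is not a smallest fold. The test gave an adjusted p = 0.132 in edgeR.

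**Figure D3:**
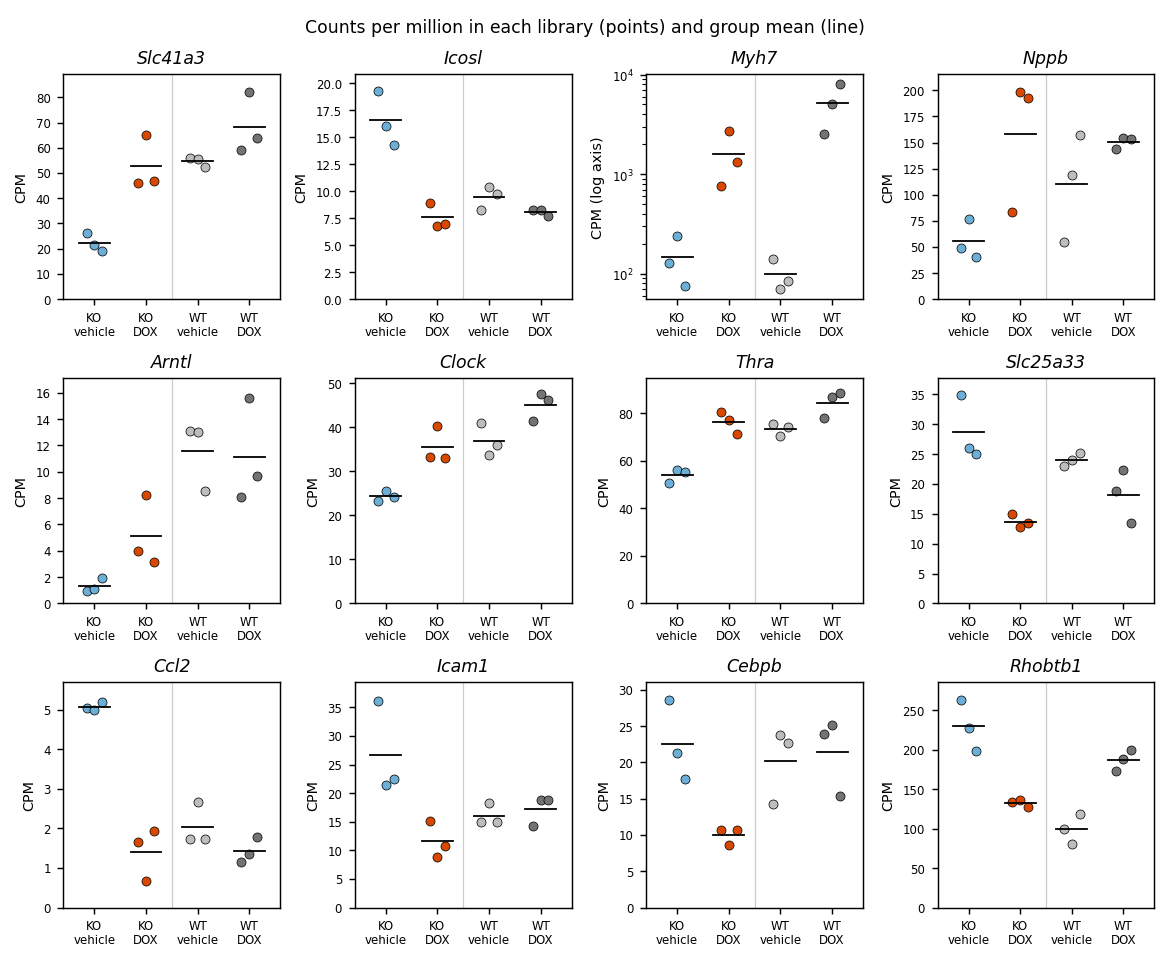
CPM of 12 named genes in each library (points) with group means (lines), for KO vehicle, KO DOX, WT vehicle and WT DOX, with a log axis for Myh7 and axes from 0 for the rest. In the 2 KO columns of every panel the points of the treatments do not overlap, which the naming rule required of most of these genes. For Slc41a3 and Icosl the KO DOX points lie near the WT points.

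Inflammatory genes were among the lower ones. Of 32 tested cytokine, chemokine and acute phase genes, 10 were lower and 0 higher at an unadjusted p below 0.05. Over all genes 2.88% were lower at that p. Of the 32, 12 lay without overlap below vehicle, beside 8.05% of all genes. The list's median log2 was -0.44, beside 0.01 over all genes, and ran from -0.22 without Dox_19 to -0.78 without Dox_18. None was called by edgeR, 4 were called lower by DESeq2 and 5 by limma-voom. Ccl2, the chemokine that draws monocytes, stood at 5.05, 4.98 and 5.20 CPM with vehicle and at 1.65, 0.658 and 1.93 CPM with DOX (log2 -1.85, SE 0.33, adjusted p = 0.132, edgeR). All KO vehicle values were alike and all DOX values were below them. WT hearts held 1.74, 2.66 and 1.74 CPM with vehicle and 1.15, 1.35 and 1.78 CPM with DOX.

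Icam1, the adhesion molecule by which leukocytes hold to endothelium, had 36.2, 21.5 and 22.5 CPM with vehicle and 15.2, 8.78 and 10.7 CPM with DOX (log2 -1.21, adjusted p = 0.194, edgeR). Tgfb1, which encodes transforming growth factor beta, had 20.7, 21 and 18.1 CPM with vehicle and 15.2, 13.6 and 15.2 CPM with DOX (log2 -0.44, adjusted p = 0.333, edgeR). Both had separate groups, and Tgfb1 was also lower with DOX in WT hearts (log2 -0.57, adjusted p = 0.0117). Without veh_3394 and Dox_18, 13 of 33 genes of the list were lower and 0 higher at that p, beside 2.9% lower over all genes, with a median of -0.64.

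Some genes of T cell costimulation were also among the lower ones. Of 27 genes of the B7 and costimulation list 16 were tested, and Icos itself was not. Of 30 listed lymphocyte markers only 5 passed the filter on low counts, and the T cell genes Cd3e, Cd3d and Cd3g did not. Of the 16 costimulation genes tested, 3 were lower and 0 higher at an unadjusted p below 0.05. Over all genes, 2.88% were lower and 2.47% higher. The 3 were Icosl, which is the gene already called, Cd40 and Ctla4. The list's median log2 was -0.19 (-0.31 without veh_3394 and Dox_18), with 11 negative and 5 positive. Its summed CPM was 150, 129 and 130 with vehicle and 126, 137 and 139 with DOX, which overlap. Cd40, a receptor of antigen-presenting cells, had 2.89, 2.64 and 2.05 CPM with vehicle and 1.38, 1.13 and 1.23 CPM with DOX (log2 -1.02, adjusted p = 0.264, edgeR). Ctla4, an inhibitory receptor of T cells, had 3.95, 5.01 and 4.61 CPM with vehicle and 1.81, 2.34 and 3.58 CPM with DOX (log2 -0.81, adjusted p = 0.826, edgeR). Both were separate between treatments. Il4ra, the interleukin 4 receptor alpha chain, is outside that list. It had 33.2, 25.1 and 22.7 CPM with vehicle and 13.5, 13.1 and 13.4 CPM with DOX (log2 -1.02, adjusted p = 0.246, edgeR). Its KO treatments were separate. In WT hearts Il4ra held 18.6, 18.8 and 21.8 CPM with vehicle and 24, 42.2 and 24.2 CPM with DOX, so there the DOX libraries were the higher ones.

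MHC class II genes, which present antigen, had a median log2 of -1.08 in KO hearts. Of 8 tested, 7 were lower without overlap, beside 8.05% of all genes. At an unadjusted p below 0.05, 2 were lower, beside 2.88% of all genes. In the fit of the 6 KO libraries alone 6 of 8 were lower at that p, beside 5.43% of all genes. EdgeR, DESeq2 and limma-voom called 0 of them. H2-DMb1 had 1.37, 1.47 and 2.00 CPM with vehicle and 0.63, 0.402 and 0.616 CPM with DOX (log2 -1.55, adjusted p = 0.497, edgeR). H2-Ab1 had 16, 13.9 and 16.8 CPM with vehicle and 8.03, 4.97 and 7.32 CPM with DOX (log2 -1.20, adjusted p = 0.997, edgeR). The KO groups were separate for both genes. In WT hearts 8 of 8 fell, beside 9.2% of all genes, with a median log2 of -2.80, and none of the 8 passed the test of the difference between genotypes. WT Dox_21 held 14 CPM of H2-Ab1, against 1.56 and 1.18 CPM in WT Dox_22 and WT Dox_24.

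Interferon response genes had 7 of 48 lower and 0 higher at an unadjusted p below 0.05, beside 2.88% lower over all genes, and 12 lower without overlap, beside 8.05%. Their median log2 was -0.19 and ran from -0.08 without Dox_19 to -0.33 without Dox_18. It was -0.32 without veh_3394 and Dox_18, with 8 of 49 lower, beside 2.9% of all genes. In the 6 KO libraries alone 11 of 47 were lower, beside 5.43% of all genes. EdgeR, DESeq2 and limma-voom called 0 of them. Gbp5, an interferon-induced GTPase, stood at 14.7, 11.8 and 14.2 CPM with vehicle and at 9.92, 7.20 and 9.94 CPM with DOX (log2 -0.59, adjusted p = 0.612, edgeR). Irf8, a factor of myeloid cells, stood at 4.37, 4.86 and 4.56 CPM with vehicle and at 3.74, 2.67 and 3.54 CPM with DOX (log2 -0.47). For both genes the DOX libraries were the lower ones.

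Markers of myeloid cells differed among the DOX libraries. Macrophage and monocyte markers summed to 498, 554 and 440 CPM with vehicle and to 569, 291 and 300 CPM with DOX, so Dox_18 was the highest and the other DOX libraries the lowest. Of 28 tested, 5 were lower and 0 higher at an unadjusted p below 0.05 (median -0.29), beside 2.88% lower over all genes. EdgeR and DESeq2 called 0, and limma-voom called Itgam. Without veh_3394 and Dox_18 the count was 11 of 29 lower, beside 2.9% of all genes, with a median of -0.69. The median ran from -0.13 without Dox_19 to -0.79 without Dox_18, and was -0.15 without Dox_20. Itgam, the integrin of myeloid cells, had 2.39, 3.13 and 3.07 CPM with vehicle and 1.93, 0.951 and 0.963 CPM with DOX (log2 -1.16, adjusted p = 0.559, edgeR). The part of macrophage number in the inflammatory genes was not tested.

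Neutrophil markers had few counts in KO hearts, and their sum was lower with DOX than with vehicle. Of 15 listed, 8 passed the filter on low counts over the 12 libraries and 4 over the 6 KO libraries, so part of them passed only through the other hearts and no count over the 8 is read here. In the fit of the 6 KO libraries alone, 2 of the 4 were lower and 0 higher at an unadjusted p below 0.05, beside 5.43% lower over all genes. The list summed to 12.5, 8.71 and 8.02 CPM with vehicle and to 5.86, 5.81 and 6.62 CPM with DOX in KO hearts. In WT hearts it summed to 3.38, 4.8 and 4.44 CPM with vehicle and to 10.3, 43.6 and 34.9 CPM with DOX. KO vehicle and KO DOX hearts thus both stood above WT vehicle hearts. S100a8, a calcium-binding protein of neutrophils, had 2.32, 1.51 and 1.36 CPM with vehicle and 0.59, 1.35 and 1.00 CPM with DOX in KO hearts. In WT hearts it had 0.445, 0.311 and 0.595 CPM with vehicle and 2.23, 10.7 and 9.09 CPM with DOX. KO DOX libraries were the lower and WT DOX libraries the higher within their genotype, and the difference between the DOX effects passed the test (log2 -4.84, adjusted p = 0.0288, edgeR).

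Glucocorticoid targets were among the lower genes as well. These genes answer to the steroid hormones of the adrenal cortex. Of 26 tested, 9 were lower and 0 higher at an unadjusted p below 0.05, beside 2.88% lower over all genes. The median log2 was -0.49, beside 0.61 in WT hearts. EdgeR called 0 of them, DESeq2 called Cebpb and limma-voom called Cebpb and Tsc22d3. Cebpb, a transcription factor of inflammation and metabolism, had 28.6, 21.3 and 17.7 CPM with vehicle and 10.7, 8.67 and 10.7 CPM with DOX (log2 -1.17, SE 0.24, adjusted p = 0.246, edgeR). Ddit4, an inhibitor of the growth kinase mTOR, had 82, 55.6 and 62.5 CPM with vehicle and 42.6, 31.6 and 36.7 CPM with DOX (log2 -0.85, adjusted p = 0.612, edgeR). Each was lower in every DOX library than in every vehicle library.

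Mt2, a metallothionein that binds zinc, had 68.6, 56.4 and 29.2 CPM with vehicle and 15.8, 16.2 and 13.1 CPM with DOX (log2 -1.77, adjusted p = 0.612, edgeR). Its vehicle libraries spread more than its DOX libraries and stayed above them. Fkbp5, a chaperone that dampens the glucocorticoid receptor, had 92.2, 66.4 and 44.1 CPM with vehicle and 32.7, 63 and 27.8 CPM with DOX, which overlap (log2 -0.71, adjusted p = 0.985, edgeR). In WT hearts Fkbp5 rose from 21.3, 12.8 and 26.2 CPM to 57, 76.7 and 92 CPM (log2 1.91, adjusted p = 0.0128). The difference between genotypes was -2.62 (adjusted p = 0.0558). Without veh_3394 and Dox_18, 6 of 26 genes of the list were lower, beside 2.9% of all genes, with a median of -0.47.

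Heat shock chaperones refold proteins. Of 23 tested, 8 were lower and 0 higher at an unadjusted p below 0.05, beside 2.88% lower over all genes. Without overlap 12 were lower, beside 8.05% of all genes, and the list's median log2 was -0.23. EdgeR, DESeq2 and limma-voom called 0 of them. Hsp90aa1 had 85.6, 76.6 and 60.7 CPM with vehicle and 53.2, 58.4 and 57.3 CPM with DOX (log2 -0.40, adjusted p = 0.687, edgeR). Hspa1a had 8.32, 3.77 and 2.18 CPM with vehicle and 1.53, 1.61 and 1.35 CPM with DOX (log2 -1.67, adjusted p = 0.623, edgeR), and a near-identical gene, Hspa1b, may share its reads. The vehicle libraries were higher in both. When veh_3394 and Dox_18 were left out, 2 of 23 were lower, beside 2.9% of all genes, with a median of -0.20. In the 6 KO libraries alone 13 of 23 were lower, beside 5.43% of all genes.

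**Figure D4:**
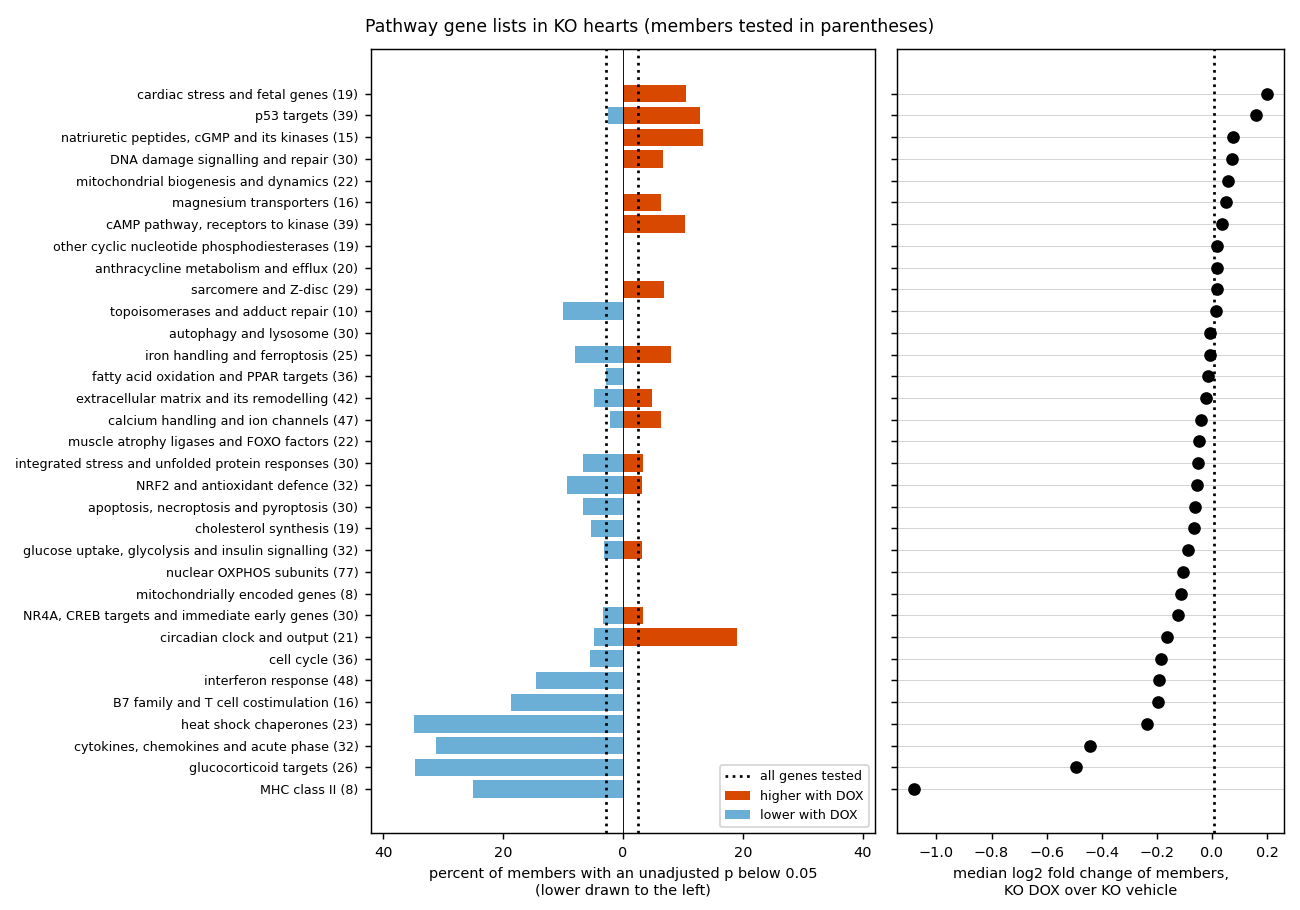
Share of members with an unadjusted p below 0.05 (left, higher in orange and lower in blue) and median log2 fold change (right) for each pathway list, with dotted lines for all genes tested. The bars of the cytokine (10 of 32), glucocorticoid (9 of 26) and heat shock (8 of 23) lists reach left past the dotted line for all genes (2.88% lower).

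Clock genes had differences in both directions. In the circadian clock, CLOCK and BMAL1 (Arntl) activate the Per and Nr1d genes, whose products repress them. Of 21 tested, 4 were higher and 1 lower at an unadjusted p below 0.05, beside 2.47% and 2.88% of all genes. Of the 21, 11 lay without overlap, 5 higher and 6 lower, beside 8.27% and 8.05% of all genes. In the 6 KO libraries alone 5 were higher and 7 lower at that p, beside 5.17% and 5.43% of all genes. The median log2 was -0.16, with -0.06 without Dox_18 and -0.05 without veh_3395. EdgeR called 0 of them, DESeq2 called Arntl and Clock, and limma-voom called Clock. Arntl stood at 0.95, 1.06 and 1.92 CPM with vehicle and at 4.01, 8.27 and 3.12 CPM with DOX (log2 1.98, SE 0.42, adjusted p = 0.246, edgeR). The KO DOX values lay above KO vehicle and mostly below WT hearts, which held 8.08 to 15.6 CPM.

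Clock had 23.3, 25.5 and 24.1 CPM with vehicle and 33.3, 40.2 and 33.1 CPM with DOX (log2 0.55, adjusted p = 0.215, edgeR). Nr1d1, the repressor REV-ERB alpha, had 68.7, 82.3 and 57.8 CPM with vehicle and 108, 136 and 111 CPM with DOX (log2 0.76, adjusted p = 0.628, edgeR). Both were higher in each DOX library. In WT hearts Nr1d1 fell (log2 -1.12, adjusted p = 0.0174), and the difference between genotypes had an adjusted p = 0.052. Per1, a repressor of the loop, had 88.3, 82.9 and 87.8 CPM with vehicle and 71.7, 74 and 69.4 CPM with DOX (log2 -0.27, adjusted p = 0.997, edgeR). Dbp, an output factor, overlapped between treatments (log2 -0.18). The part of the hour of collection was not tested.

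Of 39 tested targets of p53, the factor that answers DNA breaks, 5 were higher and 1 lower at an unadjusted p below 0.05. Over all genes 2.47% were higher and 2.88% lower at that p. Without overlap 9 targets were higher and 2 lower, beside 8.27% and 8.05% of all genes. Their median log2 was 0.16 (0.11 without Dox_19). EdgeR, DESeq2 and limma-voom called 0 of these targets. In the 6 KO libraries alone 9 of 36 were higher and 2 lower at that p, beside 5.17% and 5.43% of all genes. Without veh_3394 and Dox_18, 3 of 40 were higher and 1 lower, beside 1.72% and 2.9% of all genes. Sesn2, a stress sensor that restrains mTOR, had 2.85, 3.20 and 3.50 CPM with vehicle and 4.88, 4.68 and 4.78 CPM with DOX (log2 0.59, adjusted p = 0.405, edgeR). Eda2r, a death receptor of the TNF family, had 2.55, 2.15 and 2.77 CPM with vehicle and 4.49, 2.82 and 3.93 CPM with DOX (log2 0.59, adjusted p = 0.664, edgeR). In WT hearts their log2 values were 0.61 (adjusted p = 0.0215) and 1.17 (adjusted p = 0.00941).

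Cdkn1a, the cell cycle inhibitor p21, had 24.7, 15 and 12.2 CPM with vehicle and 27.9, 31.4 and 19.8 CPM with DOX in KO hearts, which overlap (log2 0.61, adjusted p = 0.997, edgeR). WT hearts held 30.5, 49.2 and 53.6 CPM with vehicle and 87.3, 180 and 118 CPM with DOX (log2 1.53, adjusted p = 0.0155). The difference between genotypes did not pass (log2 -0.93, adjusted p = 0.322). Mdm2, which degrades p53, had 49.9, 47.8 and 48.7 CPM with vehicle and 51.7, 56.5 and 58.5 CPM with DOX (log2 0.19, adjusted p = 0.911, edgeR), a small and separate difference.

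Cell cycle genes had low levels throughout. Of 36 tested, 29 had a negative log2, with a median of -0.19 (-0.30 without Dox_18). At an unadjusted p below 0.05, 2 were lower and 0 higher, beside 2.88% and 2.47% of all genes. EdgeR, DESeq2 and limma-voom called 0 of the 36. In the 6 KO libraries alone 4 of 32 were lower, beside 5.43% of all genes. Mki67, a mark of dividing cells, had 2.13, 1.40 and 0.938 CPM with vehicle and 0.787, 0.731 and 0.578 CPM with DOX (log2 -1.09, adjusted p = 0.692, edgeR). Top2a, the topoisomerase of dividing cells and a target of DOX, had 1.56, 1.21 and 0.64 CPM with vehicle and 0.59, 0.256 and 0.385 CPM with DOX (log2 -1.47, adjusted p = 0.697, edgeR). The DOX libraries were lower in both genes. Top2b, the form that heart muscle cells keep, held 62.3, 63.8 and 62.1 CPM with vehicle and 70.4, 65.9 and 63.3 CPM with DOX (log2 0.08, adjusted p = 0.997, edgeR).

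Of 20 genes of anthracycline metabolism and efflux, 0 had an unadjusted p below 0.05 and the 3 tools called 0. Abcb1a, a pump that exports anthracyclines, had log2 0.31 (adjusted p = 0.997, edgeR). DNA damage signalling and repair had 2 of 30 higher and 0 lower at that p, beside 2.47% and 2.88% of all genes. The 2 were Mre11a (log2 0.30) and Trp53bp1 (log2 0.32), both of which act at double-strand breaks.

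Cardiac stress and fetal genes, which failing hearts express again, had 2 of 19 higher and 0 lower at an unadjusted p below 0.05. Over all genes 2.47% were higher and 2.88% lower, and the list's median log2 was 0.20. Besides Myh7, Nppb, the B-type natriuretic peptide, had 48.9, 76.6 and 40.8 CPM with vehicle and 83.8, 198 and 193 CPM with DOX (log2 1.51, SE 0.38, adjusted p = 0.373, edgeR). The KO DOX libraries were above the vehicle libraries, and Dox_18 was the lowest of them. Nppa, the atrial natriuretic peptide, had 87.5, 877 and 79.6 CPM with vehicle and 497, 253 and 213 CPM with DOX, with its highest value in veh_3394 (log2 -0.12, adjusted p = 0.997, edgeR). Without veh_3394 and Dox_18 its log2 was 1.48, and without veh_3394 alone 1.94. Nppa belongs to the atrial marker list in which these libraries stood apart. DESeq2 called Myh7 of this list, and limma-voom Myh7 and Nppb. Without veh_3394 and Dox_18, 4 of 18 were higher, beside 1.72% of all genes. The list's median ran from -0.01 without Dox_18 to 0.64 without veh_3394, and was 0.36 without Dox_20, 0.12 without veh_3393 and 0.13 without veh_3395.

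Myh6, the fast myosin of the adult mouse heart, held 24100, 22700 and 23800 CPM with vehicle and 22100, 19500 and 23000 CPM with DOX (log2 -0.13, adjusted p = 0.997, edgeR). Acta1, skeletal alpha actin, had 138, 827 and 173 CPM with vehicle and 253, 73.5 and 94.3 CPM with DOX (log2 -1.44, adjusted p = 0.978, edgeR), again with veh_3394 highest. Ankrd1, a stretch-responsive repeat protein, had log2 0.30 in KO (adjusted p = 0.997, edgeR) and 1.55 in WT hearts (adjusted p = 0.0204). The difference between genotypes did not pass for Ankrd1 (adjusted p = 0.275). Groups overlapped for these 3 genes in KO.

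Nuclear genes of oxidative phosphorylation, the chain that makes ATP in mitochondria, had 25 of 77 lower and 0 higher without overlap, beside 8.05% and 8.27% of all genes, and 72 of 77 with a negative log2. The sizes were small, with a median of -0.10, and 0 had an unadjusted p below 0.05 with the spread shared over the 4 groups. In the 6 KO libraries alone 11 of 77 were lower at that p, beside 5.43% of all genes. EdgeR, DESeq2 and limma-voom called 0 of them in KO. In WT hearts 60 of 77 fell, beside 9.2% of all genes, with a median of -0.60. Cox7a1, a muscle subunit of cytochrome oxidase, had 661, 532 and 638 CPM with vehicle and 384, 432 and 455 CPM with DOX in KO hearts (log2 -0.53, adjusted p = 0.997, edgeR). Its treatments were separate in KO. Without scaling factors the list's median in KO was -0.07, and without Dox_18 it was -0.06.

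The cAMP pathway, the substrate side of PDE10A, had 4 of 39 higher and 0 lower at an unadjusted p below 0.05. Over all genes 2.47% were higher and 2.88% lower. In the 6 KO libraries alone 7 were higher and 2 lower, beside 5.17% and 5.43% of all genes, so the lower count was near that share. With veh_3394 and Dox_18 left out, 3 were higher and 1 lower, beside 1.72% and 2.9% of all genes. EdgeR called 0 of them, DESeq2 called Prkar1a and Popdc2, and limma-voom called Prkar1a. Prkar1a, a regulatory subunit of protein kinase A, had 385, 342 and 360 CPM with vehicle and 456, 536 and 484 CPM with DOX (log2 0.44, SE 0.10, adjusted p = 0.313, edgeR). Popdc2, a cAMP-binding membrane protein, had 469, 430 and 481 CPM with vehicle and 543, 542 and 614 CPM with DOX (log2 0.30, adjusted p = 0.568, edgeR). Akap1, which anchors protein kinase A to mitochondria, had log2 0.39. Adrb1, the beta-1 adrenergic receptor that starts the cascade, was named after its values were seen and had log2 0.33. The treatments were separate for these 4. In WT hearts Adrb1 fell (log2 -0.65, adjusted p = 0.0165), while Prkar1a, Popdc2 and Akap1 rose (log2 0.47, 0.40 and 0.48, adjusted p = 0.0168, 0.0174 and 0.024).

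Among 19 other cyclic nucleotide phosphodiesterases, 0 had an unadjusted p below 0.05 and 0 were without overlap, with a median log2 of 0.02, and the 3 tools called 0. In the list of natriuretic peptides and cGMP, 2 of 15 were higher and 0 lower, beside 2.47% and 2.88% of all genes. The 2 were Nppb and Gucy1b1, a subunit of soluble guanylyl cyclase (log2 0.34). The matrix list had 2 of 42 higher and 2 lower, which is 4.76% each, beside the same shares. Thbs2, a matricellular thrombospondin, had 14.6, 17.7 and 12.4 CPM with vehicle and 31.5, 33.7 and 22.2 CPM with DOX. Its log2 was 0.97 (adjusted p = 0.612, edgeR). Thbs2 was separate between treatments in KO and rose in WT hearts (log2 1.68, adjusted p = 0.0103).

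Genes of calcium handling and ion channels had 3 of 47 higher and 1 lower at an unadjusted p below 0.05. Over all genes 2.47% were higher and 2.88% lower. Without veh_3394 and Dox_18 the list had 1 higher and 3 lower, beside 1.72% and 2.9% of all genes. Kcnj12, an inward rectifier potassium channel, had 19.1, 20.3 and 21.5 CPM with vehicle and 28.7, 25.6 and 25.7 CPM with DOX (log2 0.39, adjusted p = 0.612, edgeR). Each DOX library was above each vehicle library. Sarcomere genes had 2 of 29 higher and 0 lower, beside 2.47% and 2.88% of all genes. The 2 were Myh7 and Myom2, an M-band protein (log2 0.72). Hk1, a hexokinase that starts glycolysis, had 208, 185 and 190 CPM with vehicle and 256, 259 and 265 CPM with DOX (log2 0.42, adjusted p = 0.497, edgeR), and each DOX library was above each vehicle library.

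Iron genes had 2 of 25 higher and 2 lower at an unadjusted p below 0.05, beside 2.47% and 2.88% of all genes. Cp, the copper enzyme ceruloplasmin that oxidises iron, had 106, 98 and 84 CPM with vehicle and 123, 180 and 125 CPM with DOX (log2 0.57, adjusted p = 0.618, edgeR). Chac1, which degrades glutathione, had 8.25, 8.26 and 4.73 CPM with vehicle and 3.15, 3 and 2.58 CPM with DOX (log2 -1.28, adjusted p = 0.862, edgeR). The treatments were separate for both. The NRF2 and antioxidant list had 1 of 32 higher, Gstm2 (3.12%, near the 2.47% of all genes). It had 3 lower, Gsta3 and the metallothioneins Mt1 and Mt2 (9.38%, beside 2.88% of all genes). Of these, Mt1 was named after its values were seen.

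Of the vessel and stroma markers, the endothelial list had 1 of 28 higher and 3 lower at an unadjusted p below 0.05. Over all genes 2.47% were higher and 2.88% lower at that p. Aqp1, a water channel of endothelium and red cells, had 444, 393 and 498 CPM with vehicle and 276, 324 and 317 CPM with DOX (log2 -0.54, adjusted p = 0.365, edgeR). Its treatments were separate, while the endothelial list as a whole summed to 2530 to 2810 CPM with vehicle and 2300 to 2640 CPM with DOX, which overlap. Pericyte and smooth muscle markers had 3 of 20 higher, and 0 without veh_3394 and Dox_18. Among these, Myh11, the smooth muscle myosin, had 33.4, 33.3 and 31.6 CPM with vehicle and 88.3, 34 and 42.7 CPM with DOX, so Dox_18 alone stood far above the vehicle libraries. Fibroblast markers had 2 of 23 higher and 2 lower, with Htra3, a secreted protease, at 50.5, 63.6 and 50.6 CPM with vehicle and 109, 84.6 and 75.5 CPM with DOX (log2 0.71, adjusted p = 0.443, edgeR). The highest Htra3 value was in Dox_18, the library with the highest fibroblast sum, and the part of that sum was not tested.

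The DOX difference itself was compared between genotypes by subtracting the WT difference from the KO one. Of 14757 genes, 31 (0.21%) passed, 16 with a higher effect in KO and 15 with a lower one. Rhobtb1, a BTB domain protein, stood in KO hearts at 263, 228 and 198 CPM with vehicle and at 134, 136 and 127 CPM with DOX. In WT hearts it stood at 98.9, 80.3 and 118 CPM with vehicle and at 173, 188 and 199 CPM with DOX. The treatments were separate in both genotypes, in opposite directions (log2 -0.80 in KO and 0.91 in WT), and the difference was -1.71 (SE 0.20, adjusted p = 0.0152, edgeR).

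Gsta3, a glutathione transferase, showed the same arrangement. It had 14.6, 13.2 and 14.8 CPM with vehicle and 8.30, 8.56 and 8.47 CPM with DOX in KO hearts. In WT hearts it had 4.14, 6.14 and 4.92 CPM with vehicle and 9.05, 13.4 and 14.9 CPM with DOX (difference -2.04, adjusted p = 0.0152, edgeR). Aqp7, a glycerol channel, ran the other way. It had 10.3, 9.16 and 10.2 CPM with vehicle and 12, 17.5 and 16.7 CPM with DOX in KO hearts, and 35.9, 21 and 25.9 CPM with vehicle and 8.19, 12.3 and 7.40 CPM with DOX in WT hearts (difference 2.21, adjusted p = 0.0288, edgeR). Each of these genes had KO vehicle values outside the range of WT vehicle values. The count of 31 was 2 without veh_3394 and Dox_18, and it ran from 0 to 515 when single libraries were left out (0 without KO Dox_20 and 515 without WT Dox_21).

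**Figure D5:**
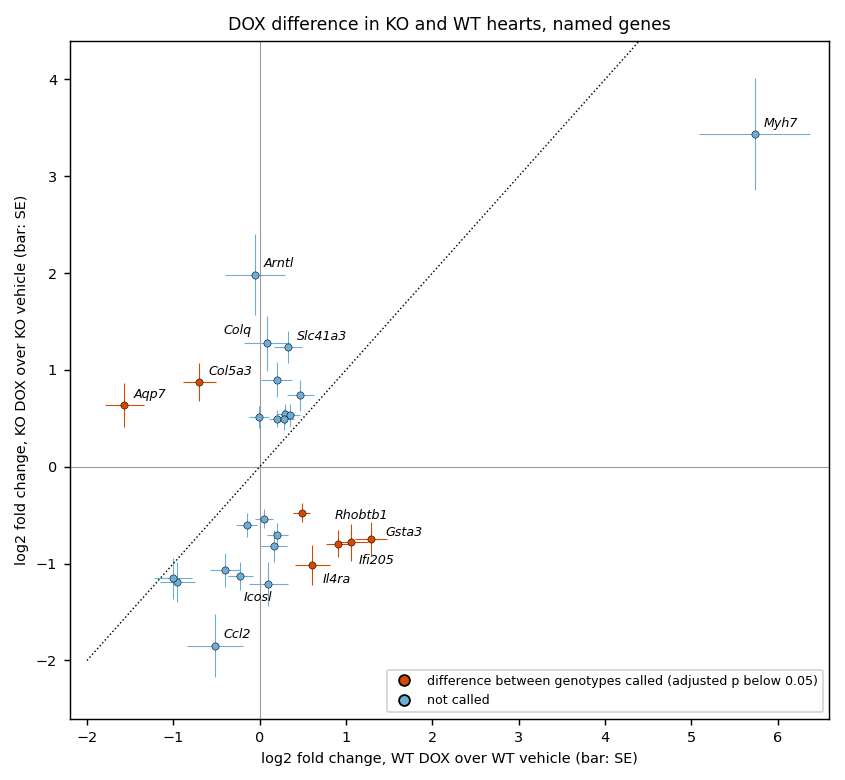
Log2 fold change of DOX over vehicle in WT (x axis) and in KO (y axis) for the genes named by rank, with bars for 1 SE and a dotted line of equal change. Orange points passed the test of the difference between genotypes, and Rhobtb1, Gsta3, Ifi205, Il4ra, Aqp7 and Col5a3 among them lie where KO and WT have opposite signs.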

How the data were processed

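The authors deposited unnormalized read counts for 55453 gene symbols in each library. Subread 1.6.4 with featureCounts, STAR 2.7.0f and fastp 0.20.0 are the tools listed in the submitters' processing notes. Per the labels' protocols the library kit was stranded. Neither the genome build and annotation nor the strand setting is stated (not given in the sources used here). Of the symbols, 98.4% were found in GENCODE M21 (GRCm38), which gave positions only.

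Counts were analysed in R 4.3.3 as deposited. Genes were kept with filterByExpr by group (14757), scaled with TMM factors, and fitted with 1 mean per group over all 12 libraries in edgeR 4.0.16, so that the 4 groups shared 1 estimate of the spread (biological coefficient of variation 17.5%). Contrasts were tested with the quasi-likelihood F test and Benjamini-Hochberg adjustment over all genes tested, threshold 0.05. The p-values measure the spread between mice. CPM used TMM-scaled library sizes. DESeq2 1.42.0 and limma 3.58.1 (voom with sample weights) were alternatives, as were DESeq2 size factors, no scaling, no filter, 1 CPM in 3 libraries, the title suffix as a covariate, the 6 KO libraries alone and leaving out libraries. DESeq2 gave no adjusted p for 23 genes. The test was tried on simulated counts first.

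The genes named are Pde10a, called genes, the 12 of smallest p in each direction (mean log2 CPM of at least 1, libraries of the treatments not overlapping, clone-type names, Xist and Y-linked genes left out), up to 10 called by both other tools, a fixed set of heart, damage, immune and clock genes, up to 3 members of each of 48 gene lists with the smallest p below 0.05, and 5 from the genotype difference. Members and lists were chosen with earlier results of these data known, so lists have counts and medians and no test.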

Additional observations from a re-analysis of the deposited data

Results flagged for a closer look

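These genes passed edgeR's test that the DOX effect differs between KO and WT hearts (adjusted p below 0.05). The KO effect less the WT effect, on the log2 scale, was -1.71 for Rhobtb1, -2.04 for Gsta3, -0.96 for Ttpal, -1.84 for Ifi205, -1.62 for Il4ra and -4.84 for S100a8. It was 2.21 for Aqp7 and 1.57 for Col5a3. For 6430562O15Rik the fitted value was 8.61, which rests on a group with no count and is not a measured size. Ifi205, an interferon-inducible gene, had 25.5, 20.9 and 18.8 CPM with vehicle and 13.1, 14.4 and 10.5 CPM with DOX in KO hearts, and 9.66, 8.01 and 12.7 CPM with vehicle and 19.3, 25.4 and 18.7 CPM with DOX in WT hearts. Ttpal had 21.4, 21.8 and 23.2 CPM with vehicle and 15.2, 16.6 and 15.9 CPM with DOX in KO hearts, and 14.4, 17.8 and 16.8 CPM with vehicle and 22.6, 23.4 and 22.8 CPM with DOX in WT hearts. In both genes the treatments were separate in each genotype and ran in opposite directions. Col5a3 ran from 13.2, 15.6 and 11.1 to 22.5, 29.4 and 21.4 CPM in KO and from 46.5, 33.7 and 38.4 to 29.2, 26 and 17.9 CPM in WT hearts, with separate treatments in each genotype, and its KO difference alone was not called (adjusted p = 0.301, edgeR).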

How the results depend on the processing

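Against 2 genes called for DOX in KO hearts, edgeR called 2 with DESeq2 size factors and 2 with the 1 CPM filter, 0 without scaling factors, 309 without a filter (of 29571 genes), 0 with the title suffix as a covariate, 0 in the 6 KO libraries alone and 1 without veh_3394 and Dox_18. DESeq2 called 66 and limma-voom 88. Leaving out single libraries gave 0 to 4 calls: 4 without KO Dox_18, 4 without WT Dox_22 and 0 without any other. For the difference between genotypes, 31 calls became 51 without scaling factors, 1093 without a filter, 373 with DESeq2, 2048 with limma-voom and 2 without veh_3394 and Dox_18. Single libraries left out gave 0 (without KO Dox_20) to 515 (without WT Dox_21), with 72 without KO Dox_18, 52 without WT veh_1 and 8 or fewer without any of the rest. Nppa, at -0.12, changed sign with limma-voom (0.70), without veh_3394 and Dox_18 (1.48), and without KO Dox_19 (0.03), KO Dox_20 (0.11) or veh_3394 (1.94), with -0.59 to 1.94 over single libraries left out, and the cause was not tested. None of the other genes among the 111 chosen by the naming rule changed sign under these alternatives; genes named after their values were seen were not included. No paired analysis was possible because mouse numbers differ between all groups. Depth limits genes below about 1 CPM, such as Top2a and the neutrophil markers, to few counts per library.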

Other observations

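Atp6v0c, the membrane ring subunit of the vacuolar proton pump, was chosen after its values were seen. It held 7.03, 7.5 and 6.06 CPM in KO vehicle hearts and 5.71, 23.4 and 24.9 CPM in Dox_18, Dox_19 and Dox_20, beside 33.8 to 52 CPM in WT hearts. Dox_18 lay with the vehicle libraries and the other DOX libraries lay between them and WT. Its log2 fold change was 1.39 (adjusted p = 0.493, edgeR) with all libraries and 1.88 (adjusted p = 0.000915) without veh_3394 and Dox_18, where it was the 1 gene called. A processed copy, Atp6v0c-ps2, may share its reads, so its level is uncertain. Lyve1, a marker of lymphatic vessels and resident macrophages, was also chosen after its values were seen. It held 33.3, 40.3 and 33.7 CPM with vehicle and 40.7, 12.9 and 16.7 CPM with DOX (log2 -0.61, adjusted p = 0.997, edgeR). EdgeR called it without Dox_18 (log2 -1.28, adjusted p = 0.0173), but not without veh_3394 and Dox_18 together. Lyve1 had the lowest log2 of 8 tested lymphatic markers, of which 5 were positive and 3 negative, with a median of 0.10.

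Serpina3f, an acute phase serine protease inhibitor outside the naming rule for its low level, was likewise chosen after its values were seen. It held 2.01, 1.02 and 0.853 CPM in KO vehicle hearts and 0.0787, 0.0366 and 0.0385 CPM in KO DOX hearts (log2 -4.55, adjusted p = 0.0641, edgeR). WT vehicle hearts held 0, 0.069 and 0.0793 CPM and WT DOX hearts 0.323, 0.873 and 0.432 CPM. The treatments were separate in each genotype, in opposite directions, and the difference passed the test (log2 -7.82, adjusted p = 0.0152), with few counts in each of the low groups. Ighm, the heavy chain of immunoglobulin M and a B cell marker, had 3.50, 2.90 and 2.43 CPM with vehicle and 5.31, 5.19 and 5.39 CPM with DOX in KO hearts (log2 0.85, adjusted p = 0.628, edgeR), above each vehicle value.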
